A study of Mus musculus with 8 samples.

Results

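The genes described here are 2 keratins, Krt8 and Krt18, the cytoplasmic actins Actb and Actg1, and 6 genes for proteins that bind actin, namely Tmsb4x, Tmsb10, Pfn1, Cfl1, Tagln2 and Arpc2. They are 10 of the 24421 genes in the count tables of single islet cells, taken by name and followed across the hormone-defined cell types, across β-cells with and without transcripts of Top2a or Cdk1, and between operated and control mice. They were chosen by name and not by a threshold, but with values of these same cells in view (UMI counts across cell types, cell-cycle state and operation), so the p-values below come from fits over all genes and are not independent evidence about the genes as a set. All mice were 8-week-old C57BL/6J. Partial pancreatectomy (PPTx) removed 50% of the pancreas 2 days before islets were isolated, and control mice had no operation, so that surgery and resection cannot be told apart. Each group holds 4 samples, each with islets pooled from 1 to 3 mice, dispersed with trypsin and sequenced from the 3′ end with unique molecular identifiers (UMIs).

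Keratins 8 and 18 pair to form the intermediate filaments of simple epithelia, the islet endocrine cells included. Actin cycles between monomers and filaments: the β-thymosins (Tmsb4x, Tmsb10) hold monomers in reserve, profilin (Pfn1) hands them to growing ends, cofilin (Cfl1) severs old filaments, the Arp2/3 complex (with its subunit Arpc2) starts branches, and transgelin-2 (Tagln2) binds filaments. In β-cells the cortical actin mesh lies between insulin granules and the plasma membrane and is remodelled during secretion, and dividing cells rebuild actin and keratin networks when they round up and split.

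Counted over all UMIs, 4 genes had samples without overlap in a planned comparison of groups or cell types: Krt18, Tmsb4x, Tagln2 and Actb. With hormone genes left out of the total, samples of Tagln2 and Actb overlapped in those comparisons too. The share of all genes without overlap is given with each result below. Arpc2 had samples without overlap only in PP cells alone, a comparison added after the data were seen. Krt8 and Krt18 lie next to each other on chromosome 15 and point away from each other, with their annotated starts 23874 bases apart. RefSeq promoter windows (GRCm38.p6, 250 bases before to 50 bases after the annotated start) were at hand for 9 of the 10 genes, Actb being without one, and those of the keratin pair, Tmsb4x and Tagln2 are given here because the results turn on them. They lie at chr15:102004293-102004592 on the minus strand for Krt8, chr15:102027966-102028265 on the plus strand for Krt18, chrX:167209169-167209468 on the minus strand for Tmsb4x and chr1:172499996-172500295 on the plus strand for Tagln2, and each is written 5′ to 3′ along its gene. Capitals mark matches, on either strand, to any of 5 motifs searched: the TATA motif TATAAA, the GC box GGGCGG, the AP-1 motif TGANTCA, the E2F motif TTTNGCGC and the CArG box.
Krt8: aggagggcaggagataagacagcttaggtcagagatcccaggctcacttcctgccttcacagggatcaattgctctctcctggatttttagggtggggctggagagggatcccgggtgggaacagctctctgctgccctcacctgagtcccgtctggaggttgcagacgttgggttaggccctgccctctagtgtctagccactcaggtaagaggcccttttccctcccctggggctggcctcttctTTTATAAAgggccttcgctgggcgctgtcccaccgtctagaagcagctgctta
Krt18: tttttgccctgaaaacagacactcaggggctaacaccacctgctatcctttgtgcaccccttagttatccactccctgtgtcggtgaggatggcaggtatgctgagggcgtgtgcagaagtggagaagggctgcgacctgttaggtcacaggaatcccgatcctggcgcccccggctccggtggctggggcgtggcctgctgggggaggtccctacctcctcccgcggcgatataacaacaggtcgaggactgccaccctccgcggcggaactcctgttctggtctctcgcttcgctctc
Tmsb4x: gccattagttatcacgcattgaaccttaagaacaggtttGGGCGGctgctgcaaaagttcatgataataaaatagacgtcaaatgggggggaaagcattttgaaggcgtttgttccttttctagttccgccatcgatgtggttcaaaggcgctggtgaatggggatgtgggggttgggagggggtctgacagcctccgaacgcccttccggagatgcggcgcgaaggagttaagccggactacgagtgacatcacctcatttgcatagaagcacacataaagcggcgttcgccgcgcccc
Tagln2: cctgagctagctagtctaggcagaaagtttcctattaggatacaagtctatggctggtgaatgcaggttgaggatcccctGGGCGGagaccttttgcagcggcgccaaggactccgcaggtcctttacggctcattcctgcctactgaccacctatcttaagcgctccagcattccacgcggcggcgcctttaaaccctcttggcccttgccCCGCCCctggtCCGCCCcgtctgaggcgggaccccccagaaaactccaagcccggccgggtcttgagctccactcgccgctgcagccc
Krt8 held 2 overlapping TATA matches, Tmsb4x held 1 GC box and Tagln2 held 3, and none of the 5 motifs was found in the Krt18 window. Among 32851 mouse promoter windows of this length, 13.6% held the TATA motif, 35.7% the GC box, 7.81% the AP-1 motif, 1.38% the E2F motif and 1.63% the CArG box. These matches describe the letters in the windows and were not tied to expression.

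Of 1240 cells in the tables, 1232 passed the filters of the study. A cell was called a β-cell when Ins1 and Ins2 gave at least 25% of its UMIs and each of Gcg, Ppy, Sst and Ghrl under 5%. It was called a PP, α- or δ-cell when Ppy, Gcg or Sst gave at least 5%, at least 3 times as much as any other of these 4, with insulin under 25%. This gave 920 β-cells, 127 PP cells, 111 α-cells and 10 δ-cells, with 64 cells in no class. β- and α-cells differed in other markers of their types: β-cells held 12610 UMIs of G6pc2 and 3358 of Ucn3 against 46 and 13 in α-cells, while α-cells held 92 of Irx2 against 4 in β-cells. These are raw counts, from 6244572 UMIs in all β-cells and 480749 in all α-cells. Mafa was listed at 0 throughout, and the PP class rested on Ppy and Pyy. Ppy and Pyy together stood at 47029 to 134015 CPM in PPTx and at 15650 to 22927 CPM in control α-cells, so α-cells stood less clearly apart from PP cells in PPTx samples. Insulin made up a median of 0.759% of UMIs in α-cells and 0.924% in PP cells. Samples held between 236645 and 1580152 UMIs, and the control replicate 1 sample was the shallowest. Only 16 of the 111 α-cells came from PPTx samples but 97 of the 127 PP cells did, and 1 barcode occurred in more than 1 sample.

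Levels are given as counts per 1000000 (CPM), the UMIs of a gene per 1000000 UMIs of that class in that sample. Differences were tested with edgeR's quasi-likelihood fit on UMIs summed per sample and class, with Benjamini-Hochberg adjustment over all genes tested. Levels are compared between samples and classes, not between genes.

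Among cell types, Tmsb4x and Actb were highest in α-cells, while Tagln2 was lower in both PP and α-cells than in β-cells once the scaling of the fit was applied. Among β-cells, Tagln2 and Actb were higher in the cells with Top2a or Cdk1 transcripts. After PPTx, Krt18 was higher in β-cells of every PPTx sample than of any control sample, but with an adjusted p just outside the threshold in edgeR (0.0554). None of these 10 genes was called between PPTx and control in the edgeR fits with the filter on low counts, all samples, called doublets kept and no replicate block.

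In numbers, edgeR called 0 of the 9 genes tested between PPTx and control β-cells, where 0.292% of 5819 genes were called. At an unadjusted p under 0.05 there were 4 (Krt8, Krt18, Tmsb10 and Tagln2) against 9.45% of all genes, and DESeq2 called 1, Krt18. The median log2 fold change of the 9 genes was 0.44, against -0.01 over all genes tested. Between β-cells with and without Top2a or Cdk1 UMIs, edgeR called 2 of 8 genes, against 5.75% of 2590. In PP against β-cells 3 of 7 were called and in α- against β-cells 3 of 7, but the background there was 47.9% and 49.1% of 1222 genes, so that these shares did not stand above the rest of the transcriptome. In α- against PP cells, a comparison added after the data were seen, 2 of 7 were called against 9.41% of all genes.

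**Figure D1:**
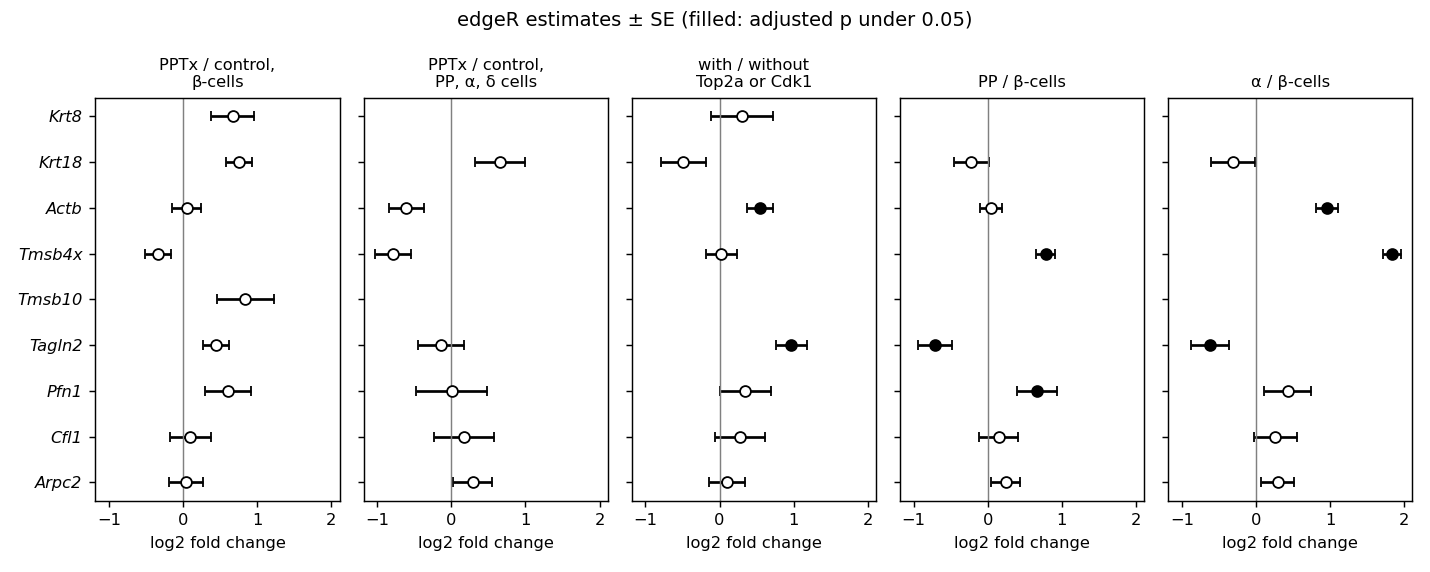
edgeR log2 fold changes with standard errors (horizontal axis) for 9 genes (vertical axis) in 5 comparisons. Filled points have an adjusted p under 0.05, and a gene without a point did not pass the filter on low counts. Tmsb4x lies farthest to the right in α- against β-cells, at 1.84.

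Krt18, the type I partner of the pair, gave 64.6 to 83.6 CPM in the 4 control β-cell sums and 118 to 146 CPM in the 4 PPTx sums. By sample, control replicates 1 to 4 stood at 76.5, 64.8, 64.6 and 83.6 CPM and PPTx replicates 1 to 4 at 126, 146, 131 and 118 CPM. Every PPTx sample lay above every control sample, as was so for 4.66% of all genes tested. The means were 72.4 ± 9.32 CPM in control and 130 ± 11.8 CPM in PPTx (SD, n = 4 each), a 1.69-fold difference in the edgeR fit (log2 fold change 0.75, SE 0.17, adjusted p = 0.0554). The call depended on the setting: the adjusted p was 0.0265 with DESeq2, 0.0263 without the filter on low counts, 0.0243 with the replicate number as a block and 0.0497 without cells called doublets, and it reached 0.491 at most over the alternatives run.

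Krt8, the type II partner, stood at 20.4, 19.4, 21.3 and 45.9 CPM in control replicates 1 to 4 and at 59.7, 62.9, 28.4 and 44.8 CPM in PPTx replicates 1 to 4. The groups overlapped, because control replicate 4 lay above 2 PPTx samples. The log2 fold change was 0.67 (SE 0.29, edgeR adjusted p = 0.463). Krt8 made up between 17.8% and 32.2% of the UMIs of the pair in PPTx β-cells and between 21.1% and 35.5% in control ones, and the exact binomial interval was widest in control replicate 1 (6.05% to 45.6%, from 4 Krt8 and 15 Krt18 UMIs). The balance of the 2 keratins thus overlapped between the groups.

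Other pancreatic epithelia also use this keratin pair, so their markers are given beside it. The summed ductal list (5 of 6 genes detected, Cldn10 at 0) stood at 207 to 234 CPM in control β-cells and 249 to 619 CPM in PPTx β-cells, and the acinar list (7 of 8 detected, Amy2a2 at 0) at 4.32 to 45.9 and 7.35 to 148 CPM. Most ductal-list UMIs in β-cells were of Krt7 (973) and Clu (679), while the duct-defining Krt19 gave 5 and Sox9 gave 3. One PPTx β-cell alone held 213 UMIs of the ductal list. Leaving out the 128 β-cells with at least 1 acinar or 10 ductal UMIs (105 PPTx and 23 control cells), a choice made after the data were seen, gave log2 fold changes of 0.72 for Krt18 (SE 0.18, edgeR adjusted p = 0.0786) and 0.54 for Krt8 (SE 0.28, adjusted p = 0.547). The part of RNA from such cells in the keratin levels was not tested further.

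No difference in Krt18 between cell classes was called. It averaged 101 ± 32.4 CPM in β-cells (SD, n = 8), 101 ± 62.8 CPM in PP cells (n = 7) and 136 ± 125 CPM in α-cells (n = 7), with edgeR adjusted p of 0.461 for PP and 0.404 for α- against β-cells. In β-cells with Top2a or Cdk1 UMIs Krt18 was lower in 5 of 6 samples (89.0 ± 56.0 against 113 ± 32.3 CPM, n = 6), with a log2 fold change of -0.49 (SE 0.31, edgeR adjusted p = 0.462). Krt8 averaged 37.9 ± 17.8 CPM in β-cells, 30.5 ± 16.4 CPM in PP cells and 55.9 ± 46.6 CPM in α-cells, and did not pass the filter in the fits between classes. For both keratins the difference of the means between PP and β-cells was smaller than the SD of either class. Between β- and α-cells it was smaller than the α-cell SD but slightly above the β-cell SD.

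**Figure D2:**
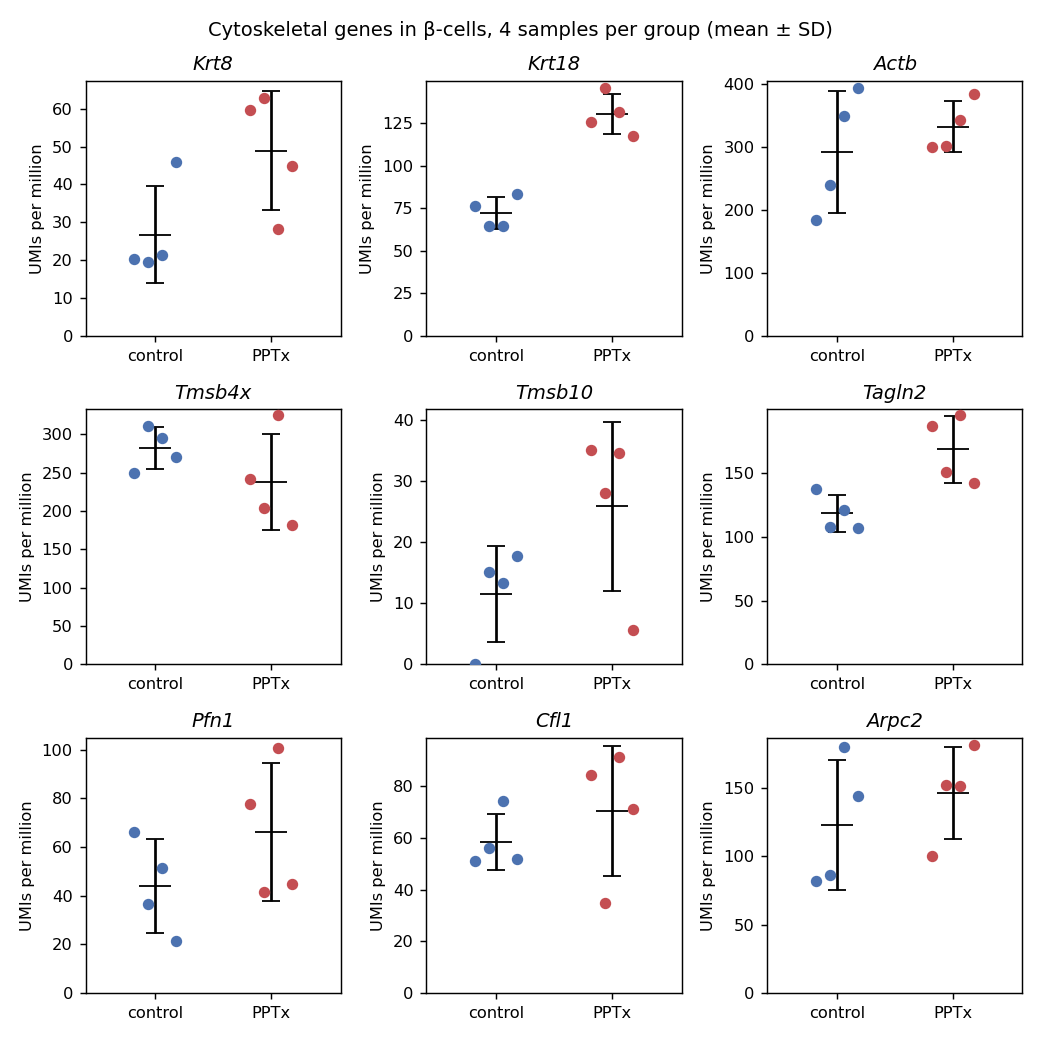
CPM in β-cells (vertical axis) for 9 genes in the 4 control and 4 PPTx samples. Points are samples, and bars give the mean and SD. For Krt18 and Tagln2 the PPTx points lie above all control points, and for Krt8 control replicate 4, at 45.9, reaches into the PPTx range. With hormone genes left out of the total, the groups overlap for Tagln2.

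Actb, which encodes cytoplasmic β-actin, was the other gene, beside Tmsb4x, that set α-cells apart. It averaged 839 ± 280 CPM in α-cells (n = 7), 325 ± 82.2 CPM in PP cells (n = 7) and 312 ± 72.2 CPM in β-cells (SD, n = 8). In control samples the α-cell sums of replicates 1 to 4 stood at 1182, 446, 875 and 935 CPM, and those of PPTx replicates 1 to 3 at 1005, 971 and 462 CPM. All 7 lay above every β-cell sum, the highest of which was 395 CPM, as was so for 10.3% of the 1222 genes tested. With hormone genes left out of the total, the ranges overlapped. α-cells of control replicate 2 (830 CPM) and PPTx replicate 3 (949 CPM) then lay below β-cells of control replicate 4 (1144 CPM). Within each of the 7 samples Actb was still higher in α- than in β-cells. The fit gave 1.95-fold higher Actb in α- than in β-cells (log2 0.96, SE 0.15, edgeR adjusted p = 7.3e-08) and 1.89-fold higher in α- than in PP cells (log2 0.92, SE 0.18, adjusted p = 7.4e-05). Between PP and β-cells, the lower neighbours, no difference was called (log2 0.04, SE 0.15, adjusted p = 0.847). Without the filter on low counts, where the median over all genes moved to -0.47 in α- against β-cells, Actb stood at 0.41 with an adjusted p of 0.253.

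Actb was also higher in β-cells with Top2a or Cdk1 UMIs, the topoisomerase and the cyclin-dependent kinase of cells in late cycle. These were 45 of the 920 β-cells, 35 of them from PPTx samples, and 23 carried a single such UMI. With these transcripts the sums of control replicates 3 and 4 stood at 698 and 833 CPM, and those of PPTx replicates 1 to 4 at 325, 368, 583 and 760 CPM. Without them the same samples gave 337 and 381 CPM, and 297, 297, 317 and 371 CPM. Every sample was higher with the transcripts (6 of 6, or 5 of 6 with hormone genes left out of the total), though the ranges overlapped, and the log2 fold change was 0.55 (SE 0.18, edgeR adjusted p = 0.0364). Control replicates 1 and 2, with 1 such cell each, were left out of the fit. The call was lost without control replicate 3 (adjusted p = 0.216), control replicate 4 (0.0871), PPTx replicate 3 (0.289) or PPTx replicate 4 (0.107), with cells thinned to 2700 UMIs (0.405) and when at least 2 such UMIs were asked for (0.215). Without the filter on low counts it was 0.02 (adjusted p = 0.959) against a median of -0.62 over all genes. Cells with these UMIs were deeper, at a median of 7357 UMIs against 6097.

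Between PPTx and control β-cells no difference in Actb was called (332 ± 40.5 CPM in PPTx and 292 ± 97.2 CPM in control, n = 4 each; log2 0.05, SE 0.20, edgeR adjusted p = 0.967). Actg1, the gene of cytoplasmic γ-actin, was listed with 6 UMIs in all 1232 cells, against 3007 of Actb, and passed no filter. Cells commonly make both actins, so the listed counts of Actg1 are not read as its level.

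Tmsb4x, the thymosin that binds actin monomers, showed the widest separation of cell types. It averaged 1245 ± 294 CPM in α-cells (n = 7), 449 ± 73.9 CPM in PP cells (n = 7) and 260 ± 50.7 CPM in β-cells (SD, n = 8). The α-cell sums ran from 828 to 1605 CPM, the PP sums from 353 to 557 CPM and the β-cell sums from 181 to 325 CPM, and no ranges touched. Every PP sum lay above every β-cell sum for 7.04% of the 1222 genes tested, every α-cell sum above every PP sum for 3.52%, and both for 0.818% (10 genes). With hormone genes left out of the total, the PP and β-cell ranges overlapped. PP cells of PPTx replicate 2 then stood at 833 CPM, below β-cells of control replicate 2 at 919 CPM. Within every sample the order α, PP, β held among sums of at least 3 cells, with or without hormone genes in the total. Each step was called: 3.57-fold for α- against β-cells (log2 1.84, SE 0.13, edgeR adjusted p = 6.4e-22), 2.08-fold for α- against PP cells (log2 1.06, SE 0.14, adjusted p = 2.3e-08) and 1.72-fold for PP against β-cells (log2 0.78, SE 0.13, adjusted p = 4.3e-07). The first of these was called under all 14 alternatives, and the last under all but the fit without a filter on low counts (log2 0.34, adjusted p = 0.359), where the median over all genes was -0.33.

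Immune cells carry much Tmsb4x, so their markers were counted in the same sums. Of the 8 immune genes, Ptprc, Lyz2, Laptm5, Coro1a and Cd74 were at 0 in α- and PP cells, and C1qa gave 16 of the 16 immune-list UMIs in α-cells. The list stood at 0 to 177 CPM in PPTx and 0 to 55.7 CPM in control α-cells, against 3.31 to 35.5 and 15.3 to 34.7 CPM in β-cells.

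The 10 δ-cells, at most 2 in a sample, did not reach the limit of 3 cells for a sum and were not fitted. Pooled, they gave 596 CPM of Tmsb4x from 18 UMIs (exact Poisson interval 353 to 942 CPM, for counting error only) and 563 CPM of Actb from 17 UMIs (328 to 902 CPM). Their Tagln2 stood at 331 CPM from 10 UMIs (159 to 609 CPM). For Tmsb4x this pooled value lies between the PP and α-cell means. In PPTx replicate 2 the hormone cells other than β-cells held 47 UMIs of stellate and smooth muscle markers. Of these, 5 were in its PP cells and 0 in its α-cells, so the rest lay in its 1 δ-cell. That cell was kept in the pool, with 2 of the Tmsb4x UMIs and 2 of the Tagln2 UMIs.

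**Figure D3:**
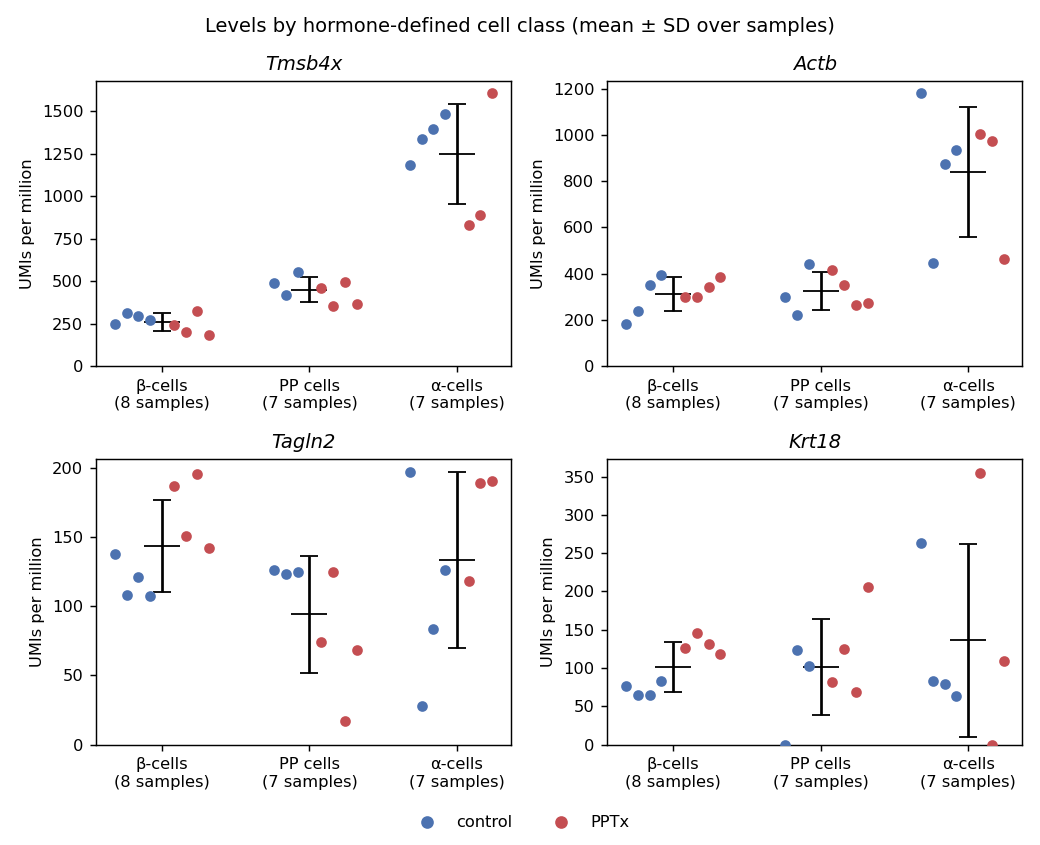
CPM (vertical axis) of 4 genes in β-, PP and α-cell sums of at least 3 cells. Points are samples coloured by group, and bars give the mean and SD. Tmsb4x stands at 3 separate levels, with means of 260, 449 and 1245, Actb separates α-cells only, and the Krt18 ranges overlap. With hormone genes left out of the total, PP and β-cell ranges overlap for Tmsb4x, and α- and β-cell ranges for Actb.

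Within hormone cells other than β-cells, Tmsb4x was lower in every PPTx sample (513, 433, 764 and 340 CPM in replicates 1 to 4) than in any control sample (1044, 778, 1236 and 1017 CPM), as was so for 5.49% of the 1349 genes tested. With hormone genes left out of the total, the groups overlapped, with PPTx replicate 3 at 2027 CPM above control replicate 2 at 1780 CPM. The log2 fold change was -0.79 (SE 0.25, edgeR adjusted p = 0.19), it was called with the replicate number as a block (-0.82, adjusted p = 0.0433), and without PPTx replicate 3 it was -1.11 with an adjusted p of 0.00929. Actb went the same way (log2 -0.61, SE 0.24, adjusted p = 0.348). Of the 111 α-cells 95 came from control samples, and of the 127 PP cells 97 came from PPTx samples, so the mix of classes and the operation cannot be told apart in these sums. In PP cells alone, an alternative added after the data were seen, Tmsb4x stood at 420 ± 71.4 CPM in 4 PPTx and 488 ± 68.9 CPM in 3 control samples (log2 -0.28, SE 0.27, edgeR adjusted p = 0.958), and for Actb the log2 fold change was -0.07 (SE 0.28, adjusted p = 0.997). In β-cells the log2 fold change of Tmsb4x was -0.34 (SE 0.18, adjusted p = 0.557).

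edgeR called 0 of 7 genes between PPTx and control in these other hormone cells (background 0.964% of 1349 genes), with 2 at an unadjusted p under 0.05 (10.6% of all genes) and 0 by DESeq2. The difference of the PPTx change between these cells and β-cells was called for 0 of 8 genes (background 0.462% of 3460), with 3 at an unadjusted p under 0.05 (9.28% of all genes) and 0 by DESeq2. Krt8 had the largest such difference: it averaged 28.2 ± 7.67 CPM in PPTx and 53.0 ± 13.9 CPM in control samples outside β-cells (n = 4 each), against 48.9 ± 15.8 and 26.8 ± 12.8 CPM in β-cells. The interaction was -1.63 on the log2 scale (SE 0.51, edgeR adjusted p = 0.154), from 55 Krt8 UMIs outside β-cells. In PP cells alone edgeR called 0 of 6 genes (background 0.155% of 647), with 1, Arpc2, at an unadjusted p under 0.05 (6.65% of all genes); DESeq2 was not run there.

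Tmsb10, the second thymosin, was sparse, with 136 UMIs in β-cells. Its β-cell sums stood at 0, 15.1, 13.4 and 17.7 CPM in control replicates 1 to 4 and at 35.04, 28.1, 34.7 and 5.60 CPM in PPTx replicates 1 to 4. Of the PPTx samples 3 lay above all controls and 1 did not, and the log2 fold change was 0.84 (SE 0.39, edgeR adjusted p = 0.507). In α-cells Tmsb10 averaged 65.6 ± 59.5 CPM against 18.7 ± 13.0 CPM in β-cells, and it was higher in 7 of 7 samples, but it did not pass the filter in that fit.

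Pfn1 and Cfl1, which feed and sever filaments, varied widely between samples. Pfn1 averaged 87.2 ± 65.3 CPM in PP cells (n = 7) and 55.0 ± 25.4 CPM in β-cells (SD, n = 8), and was called in that contrast (log2 0.66, SE 0.27, edgeR adjusted p = 0.0365) with 5 of 7 samples higher. This call was lost with DESeq2 (adjusted p = 0.15), without the filter on low counts (0.646) and without control replicate 2 (0.0625), control replicate 3 (0.144), PPTx replicate 1 (0.0596), PPTx replicate 2 (0.0799) or PPTx replicate 3 (0.109). After PPTx, Pfn1 in β-cells averaged 66.2 ± 28.3 CPM against 43.9 ± 19.3 CPM in control (n = 4 each; log2 0.61, SE 0.30, edgeR adjusted p = 0.543). Cfl1 averaged 70.4 ± 25.2 and 58.3 ± 10.8 CPM in the same groups (log2 0.10, SE 0.27, adjusted p = 0.945), and edgeR called it in none of the comparisons.

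Tagln2 was the gene most clearly raised in β-cells with Top2a or Cdk1 UMIs. With them it stood at 305 and 119 CPM in control replicates 3 and 4 and at 370, 241, 392 and 488 CPM in PPTx replicates 1 to 4. Without them the same samples gave 114 and 107 CPM, and 169, 144, 174 and 130 CPM. All 6 samples were higher with the transcripts, 5 of them widely and control replicate 4 barely, while 5 of 6 were higher with hormone genes left out of the total. The fit gave a 1.96-fold difference (log2 0.97, SE 0.21, edgeR adjusted p = 2.2e-04). The call was lost in cells thinned to 2700 UMIs, where the estimate was 0.94 (SE 0.31, adjusted p = 0.0582), and without the filter on low counts, where it was 0.47 (adjusted p = 0.336) against a median of -0.62 over all genes. In these 6 samples 107 Tagln2 UMIs came from the cells with these transcripts.

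**Figure D4:**
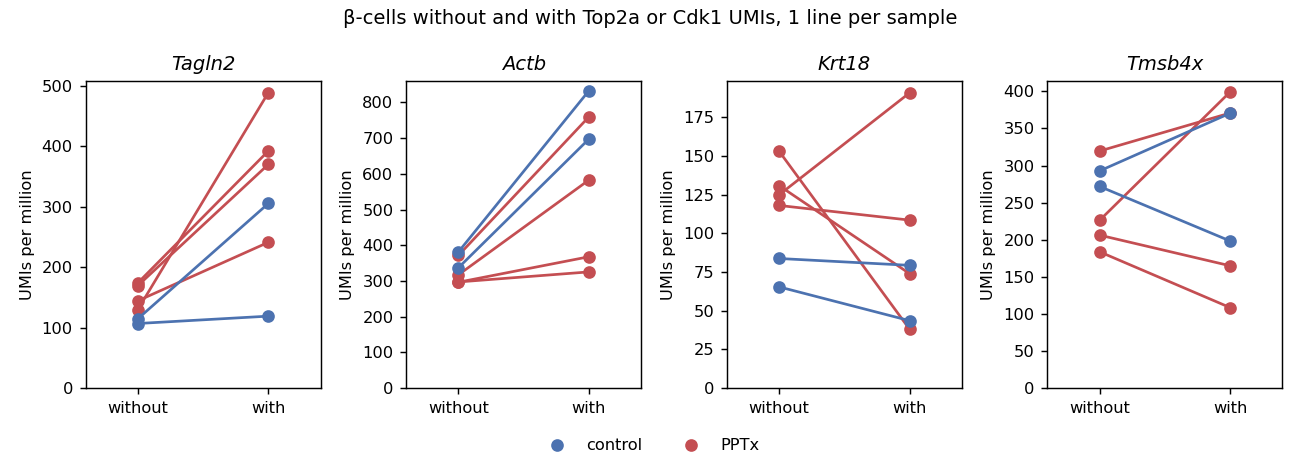
CPM (vertical axis) in β-cells without and with Top2a or Cdk1 UMIs for 4 genes. Each line is a sample, with 2 control and 4 PPTx samples shown. All 6 lines rise for Tagln2 and Actb, 5 of 6 fall for Krt18, and 3 rise and 3 fall for Tmsb4x.

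Across PPTx and control β-cells Tagln2 stood at 138, 108, 121 and 107 CPM in control replicates 1 to 4 and at 187, 151, 195 and 142 CPM in PPTx replicates 1 to 4. Every PPTx sample lay above every control sample, as for 4.66% of 5819 genes, yet PPTx replicate 4 lay close to control replicate 1. With hormone genes left out of the total, the groups overlapped. PPTx replicate 2 then stood at 360 CPM, below control replicates 1 (378 CPM) and 3 (372 CPM). The log2 fold change of 0.44 (SE 0.18) had an edgeR adjusted p of 0.413. Without the cells that carried Top2a or Cdk1 UMIs it was 0.37 (SE 0.17, adjusted p = 0.539). Between cell types, Tagln2 averaged 144 ± 33.2 CPM in β-cells (n = 8), 133 ± 63.7 CPM in α-cells and 94.2 ± 42.3 CPM in PP cells (SD, n = 7 each). The fits, whose scaling allows for the large share of hormone RNA, gave log2 fold changes of -0.71 in PP cells (SE 0.23, edgeR adjusted p = 0.00816) and -0.62 in α-cells (SE 0.26, adjusted p = 0.0428) against β-cells. In CPM only 4 of 7 samples were lower in either class, and 5 of 7 when hormone genes were left out of the total. The call in PP cells was lost without PPTx replicate 1 (adjusted p = 0.0711) or PPTx replicate 3 (0.108). The call in α-cells was lost without control replicate 2 (0.0875), control replicate 3 (0.236), PPTx replicate 1 (0.067) or cells called doublets (0.0507). Between PP and α-cells no difference in Tagln2 was called (log2 0.09, SE 0.34, adjusted p = 0.919).

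Arpc2, a core subunit of the Arp2/3 complex, was called by edgeR in none of the comparisons. It averaged 135 ± 40.03 CPM in β-cells (n = 8), 156 ± 65.8 CPM in PP cells and 192 ± 113 CPM in α-cells (SD, n = 7 each), and 123 ± 47.3 against 146 ± 33.8 CPM in control and PPTx β-cells (n = 4 each; log2 0.04, SE 0.23, edgeR adjusted p = 0.977). In PP cells alone all 4 PPTx samples (160 to 249 CPM) lay above the 3 control samples (56.8 to 148 CPM), as was so for 4.64% of the 647 genes tested, with a log2 fold change of 1.11 (SE 0.39) and an adjusted p of 0.683.

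The wider cytoskeleton was followed through 78 genes in 7 lists (other keratins and partners, the Arp2/3 complex, monomer binding, capping, bundling and tropomyosin, myosin, and membrane linkers). Between PPTx and control β-cells 0 of the 46 tested were called by edgeR, 3 had an unadjusted p under 0.05 and DESeq2 called 0, beside 0.292% of all genes called and 9.45% at that unadjusted p. Their median log2 fold change was -0.01, as it was over all genes. Between β-cells with and without Top2a or Cdk1 UMIs 1 of 30 was called, S100a10, a partner of annexin A2 at the membrane, which was 2.498-fold higher (log2 1.32, SE 0.30, edgeR adjusted p = 4.3e-04, or 0.126 without the filter on low counts). Over all genes 5.75% were called. At an unadjusted p under 0.05 there were 7 of the 30, against 16.5% of all genes, and the median log2 fold change was 0.05 against -0.08 over all genes. In PP against β-cells 3 of 18 were called (2 higher, 1 lower) and in α- against β-cells 5 of 18 (3 higher, 2 lower), below the 47.9% and 49.1% of all genes. The remaining Arp2/3 subunits, 5 of which were tested there, gave 0 calls in either contrast by edgeR, with medians of -0.22 in PP and -0.00498 in α-cells.

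Of the called genes, the myosin regulatory light chains Myl12a and Myl12b were 2.502- and 2.05-fold higher in PP cells (edgeR adjusted p = 2.0e-05 and 8.6e-06) and 2.56- and 1.76-fold higher in α-cells (adjusted p = 9.0e-05 and 0.00175). S100a11, a calcium-binding partner of annexins, was 2.32-fold higher in α-cells (SE 0.18 on the log2 scale, adjusted p = 2.1e-08). Krt7, another keratin, was lower in α-cells (log2 -0.73, SE 0.23, adjusted p = 0.00615). Leaving out control replicate 3 ended the call of Krt7 (adjusted p = 0.0525), and Myl12b was not called without the filter on low counts (0.0993 in PP and 0.523 in α-cells).

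Immediate early genes, transcription factor genes that respond rapidly to stimuli and to the handling of cells, were listed for comparison. Of 12 such genes 6 were tested, and all 6 were higher both in PP cells (median log2 fold change 2.59) and in α-cells (2.06) than in β-cells, where 47.9% and 49.1% of all genes were called in either direction. Fos was 6.79-fold higher in PP cells and 8.19-fold higher in α-cells (edgeR adjusted p = 3.6e-24 and 2.3e-25). Their summed level stood at 181 to 655 CPM in β-cells of PPTx and 229 to 571 CPM in β-cells of control samples. Of the 6 tested there, 0 were called (0.292% of all genes), with 0 at an unadjusted p under 0.05 (9.45% of all genes) and 0 by DESeq2. In the other hormone cells edgeR also called 0 of 6 between PPTx and control (background 0.964%), and DESeq2 called 0. At an unadjusted p under 0.05 there were 3 of the 6, against 10.6% of all genes. The median log2 fold change was 0.71 against 0.01 over all genes. As above, the mix of classes and the operation cannot be told apart in these sums. In α- against PP cells 2 of 6 were called, both lower (9.41% of all genes called), with a median of -0.50. In PP cells alone edgeR called 0 of 5 (background 0.155%), with a median of 0.44. There 1 had an unadjusted p under 0.05, against 6.65% of all genes. The part of immediate early genes in the levels of Actb and Tmsb4x was not tested.

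Likeness over the 22 sums of sample and class gave a few genes for each pair, as a description in which sums of 1 sample share a library. The sum of Tmsb4x and Tmsb10 went most closely with Gcg (Pearson r = 0.953), Gnas (0.938), Pcsk2 (0.937), Ttr (0.931) and Rpl13a (0.915), of which Gcg defines the α-cell class. Actb with Actg1 went with Cryba2 (r = 0.832), Ttr (0.829), Prkar1a (0.824), Gnao1 (0.819) and Trim44 (0.817). Krt8 with Krt18 went with Eif3k (r = 0.940), Bod1 (0.938), Rrbp1 (0.936), Fech (0.916) and Cdipt (0.914), but this rested on 1 sum of 6 cells that held no keratin UMI: without it the r values fell to between 0.354 and 0.722.

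Between single β-cells of a sample, each thinned to 2700 UMIs, counts of these genes were too low to read the variation between cells. The ratio of variance to mean, which is 1 for counting alone and stays close to it at such low counts even where cells vary, had a median over samples of 1.13 for Krt18, 1.24 for Actb, 1.17 for Tmsb4x and 1.07 for Tagln2. Krt8 ran from 0.811 to 3.89, and the highest value came from PPTx replicate 1, where 1 cell held 8 of the 19 thinned Krt8 UMIs.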

How the data were processed

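Single-cell RNA-seq of dispersed islets gave 1 table per sample, 4 control and 4 PPTx. The authors deposited UMI counts per gene and cell, not normalized, made per the labels with bcl2fastq 2.20.0.422 and Cell Ranger 2.1.0 on mm10. The labels and the study's methods name different library kits, so the kit is not given here. Cells were kept with 100 to 3000 genes and 100 to 20000 UMIs, and genes found in at least 3 cells. Doublets were called with Scrublet in scanpy 1.11.5 (65 cells, 5.28%) and kept, with an alternative without them. The members and gene lists were chosen with earlier results of these data known.

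UMIs were summed per sample and class, and sums of at least 3 cells entered the fits (at least 2 for β-cells with Top2a or Cdk1 UMIs). β-cell sums held 196159 to 1268642 UMIs. The main test was edgeR 4.0.16 (R 4.3.3; filterByExpr, TMM, quasi-likelihood F test, Benjamini-Hochberg over all genes tested, threshold 0.05). Comparisons of classes, and of β-cells with and without Top2a or Cdk1 UMIs, had the sample as a term. Samples are pools of 1 to 3 mice, so p-values measure the spread between pools. Named genes are all 10 members, and of each list at most 3 genes called each way, at log2 CPM of at least 5, by size of change. Intervals on single values are exact, at 95%, and cover counting error only. Alternatives were DESeq2 1.42.0, scaling without hormone genes, no filter, thinning to 2700 UMIs per cell, an insulin limit of 35%, a replicate block and leaving out each sample in turn. The fits were tested on simulated counts. Motifs were searched on both strands. Some genes of the lists are counted but not reported here by name.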

Additional observations from a re-analysis of the deposited data

Results flagged for a closer look

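Krt8 in β-cells of control replicate 4 stood at 45.9 CPM, while the other control samples lay between 19.4 and 21.3 CPM. Its distance from them passed Dixon's limit for 4 samples, in 20 groups tested, of which chance flags about 1 in 20.

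Some of the 64 cells in no hormone class carried high levels of these genes. A limit of 10 marker UMIs, chosen after the data were seen, picked out 6 cells with immune markers (20 to 70 marker UMIs each) and 5 cells with stellate and smooth muscle markers (20 to 173 each). The 6 cells with immune markers held 14878 UMIs in all and gave 19895 CPM of Tmsb4x, 7662 CPM of Actb, 1277 CPM of Arpc2, 807 CPM of Pfn1, 470.5 CPM of Tagln2 and 336 CPM of Cfl1, the last 3 from 12, 7 and 5 UMIs. Pooled β-cells gave 262 CPM of Tmsb4x, 329 CPM of Actb, 145 CPM of Arpc2, 54.9 CPM of Pfn1, 146 CPM of Tagln2 and 65.0 CPM of Cfl1. The 5 cells with stellate and smooth muscle markers held 11312 UMIs and gave 3182 CPM of Actb, 2298 CPM of Tmsb4x and 884 CPM of Tagln2. Their 619 CPM of Tmsb10 came from 7 UMIs, 5 of them in 1 cell (exact Poisson interval 249 to 1275 CPM), against 21.8 CPM in pooled β-cells, and their 354 CPM of Pfn1 from 4 UMIs (96.3 to 905 CPM). Krt8 was at 0 in both sets. These cells entered no comparison, and their difference from β-cells was not tested.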

How the results depend on the processing

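Between PPTx and control β-cells 17 genes were called, against 30 with DESeq2, 81 without the filter on low counts and 4 to 25 when 1 sample was left out (4 without PPTx replicate 1, 8 without control replicate 2, 9 without control replicate 1). In other hormone cells 13 became 5 in thinned cells and 6 (without control replicate 3) to 31 (without PPTx replicate 3) with 1 sample left out, with 22 without PPTx replicate 4. For the difference of the PPTx change, 16 became 3 with DESeq2, 5 without the filter, 6 in thinned cells and 3 to 23 with 1 sample left out. For β-cells with Top2a or Cdk1 UMIs, 149 became 560 without the filter (33.6% higher, against 67.1%), 41 in thinned cells, 70 with every sample holding such a cell and 114 to 159 with 1 sample left out. PP against β-cells gave 585, or 1479 without the filter (26.3% higher, against 51.6%), 202 in thinned cells and 464 to 605 with 1 sample left out. α- against β-cells gave 600, or 1587 without the filter (20.8% higher, against 51.5%), 233 in thinned cells and 445 to 602 with 1 sample left out. α- against PP cells gave 115, or 60 in thinned cells and 82 to 117 with 1 sample left out. Thinned cells left fewer genes to test. The cause of the other shifts was not tested.

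No log2 fold change that turned direction was called by edgeR in the first place. In β-cells after PPTx, Actb was -0.00604 in thinned cells and -0.10 to 0.21 with 1 sample left out, Arpc2 -0.0779 without cells with acinar or ductal UMIs and -0.12 to 0.33, and Cfl1 -0.0701 to 0.40. In other hormone cells Pfn1 was -0.0764 with DESeq2, -0.00646 with hormone-free scaling, -0.0447 without the filter, -0.0430 without doublets, and -0.44 to 0.35 with 1 sample left out, Cfl1 was -0.16 to 0.64 and Tagln2 -0.46 to 0.0127. For the difference of the change, Cfl1 was -0.0375 to 0.46 and Krt18 -0.29 to 0.0650. With Top2a or Cdk1 UMIs and no filter, Krt8 was -0.16, Tmsb4x -0.51, Pfn1 -0.19, Cfl1 -0.21 and Arpc2 -0.41. There Tmsb4x was -0.10 in thinned cells and -0.17 to 0.12 with 1 sample left out, and Pfn1 -0.90 with DESeq2 and -0.89 to 0.53. In PP against β-cells Actb was -0.0853 with DESeq2, -0.38 without the filter, -0.13 in thinned cells and -0.0358 to 0.0986 with 1 sample left out, Cfl1 was -0.00242 with DESeq2 and -0.27 without the filter, and Arpc2 -0.19 without it. In α- against β-cells without the filter Pfn1 was -0.0880, Cfl1 -0.22 and Arpc2 -0.18.

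Samples of the 2 groups share replicate numbers. The correlations of their deviations were 0.0590, 0.0228, 0.0992 and 0.152, against -0.112 to 0.0737 between different numbers. Control replicates 1, 3 and 4 went best with their own number. Control replicate 2 went best with PPTx replicate 3 (0.0737), and PPTx replicate 2 with control replicate 1 (0.0294). The main fits were run without pairing, and whether a shared number marks a shared batch was not tested further. With the replicate number as a block 47 genes were called in β-cells, against 17 without it, and Pfn1 in other hormone cells was -0.31. Krt18 in β-cells and Tmsb4x in other hormone cells were called with the block, as given above. The fit of δ- against β-cells and its alternatives were not run, since no sample reached the limit of 3 δ-cells.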
